A study of Mus musculus with 6 samples.

Results

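The CpG-rich probes of a mouse long non-coding RNA array were examined in the hippocampus of diabetic and control mice. A CpG is a C followed directly by a G, and a probe was counted as CpG-rich when its 60 bases held at least 4 of them. Of 90752 probes, 913 met this rule. The sequence alone decided which probes met the rule, though earlier results of these data were known when the members were chosen. Of the 913, 602 held exactly 4 CpG, 177 held 5, 96 held 6 or 7 and 38 held 8 or more, up to 13. Just outside the rule lay 2186 probes with 3 CpG. The comparison group was made of probes without a CpG that had the same total number of G and C bases.

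The arrays read hippocampal RNA of male mice aged 18 weeks that had been through behavioural tests. There were 3 arrays of db/db mice and 3 of db/m mice, each labelled as a replicate of its own. A db/db mouse is homozygous for a mutation of the leptin receptor and becomes obese and diabetic. A db/m mouse is heterozygous for that mutation and serves as the lean control, so both groups carry the allele, and no mouse without it was measured. The mutation acts in the whole body, and the labels give neither weight nor blood glucose for these mice. By its title, the series asks about lncRNA profiles of the hippocampus in the diabetic animals, which it describes as cognitively impaired.

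The CpG pair is rare in mammalian genomes, because its cytosine is often methylated and methylated cytosine mutates readily. CpG islands are short, mostly unmethylated stretches in which the pair is frequent, and many genes start in one. RNA made from such stretches, from GC-rich non-coding genes or from some microRNA hairpins therefore carries CpG pairs. A microRNA hairpin is a folded stretch of a longer transcript that is cut to release the short mature microRNA. The arrays measured RNA, and no value here is a methylation level.

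The members with the most CpG and those tied to a known hairpin are shown first, since they define what the probes read. Probe sequences run 5′ to 3′ as deposited, with every CpG in capitals.

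MOUSELNCRNA_17620, with 13 CpG: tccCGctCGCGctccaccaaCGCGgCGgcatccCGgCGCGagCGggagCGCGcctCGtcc
MOUSELNCRNA_61793, with 13 CpG: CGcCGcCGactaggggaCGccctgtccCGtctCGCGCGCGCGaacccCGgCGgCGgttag
MOUSELNCRNA_26812, with 13 CpG: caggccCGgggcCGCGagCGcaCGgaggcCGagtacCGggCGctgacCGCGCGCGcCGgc
MOUSELNCRNA_51488, with 12 CpG: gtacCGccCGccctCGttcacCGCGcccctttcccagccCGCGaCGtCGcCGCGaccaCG
MOUSELNCRNA_47252, with 12 CpG: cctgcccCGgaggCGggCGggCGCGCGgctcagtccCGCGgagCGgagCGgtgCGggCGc

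The first of these lies whole within the hairpin of Mir7654 on chromosome 8 (8690093 to 8690162, minus strand, RefSeq on GRCm38.p6). The other 4 matched no RefSeq hairpin or promoter window. In the hairpin probes below, the bases of a mature arm that the probe holds whole are in capitals in place of the CpG. Arms held only in part stay in small letters, such as miR-219a-5p at the start of MOUSELNCRNA_12764. The Mir137 pair is shown because both probes lay higher in db/db, and the Mir219 probes because each locus was read on both strands.

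MOUSELNCRNA_18960, Mir137: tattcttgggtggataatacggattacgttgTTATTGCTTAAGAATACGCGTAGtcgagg
MOUSELNCRNA_63968, Mir137: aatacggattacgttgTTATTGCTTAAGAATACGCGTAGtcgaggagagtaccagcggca
MOUSELNCRNA_12764, Mir219a-1: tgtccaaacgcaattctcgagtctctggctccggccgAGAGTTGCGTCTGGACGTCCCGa
MOUSELNCRNA_56431, Mir219c: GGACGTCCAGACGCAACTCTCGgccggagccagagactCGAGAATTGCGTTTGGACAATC
MOUSELNCRNA_81826, Mir219b: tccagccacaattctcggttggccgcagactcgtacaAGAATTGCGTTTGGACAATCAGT
MOUSELNCRNA_27499, Mir485: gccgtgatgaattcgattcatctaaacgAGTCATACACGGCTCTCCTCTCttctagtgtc

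A mature microRNA of each of these hairpins, from RefSeq, is given next. Its seed (bases 2 to 8), which pairs with target RNAs, is in capitals. For Mir137 and the Mir219 hairpins the other arm is left out. The arm in capitals in MOUSELNCRNA_12764 is miR-219a-1-3p, which is not in the list. Mir219a-1 and Mir219a-2 both give miR-219a-5p and so share a seed, while the other seeds shown differ.

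miR-137-3p: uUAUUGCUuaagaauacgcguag
miR-219a-5p: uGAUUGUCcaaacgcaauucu
miR-219c-3p: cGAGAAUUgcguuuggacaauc
miR-219b-3p: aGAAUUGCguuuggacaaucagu
miR-485-3p: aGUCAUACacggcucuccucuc

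A probe of 60 bases reads the hairpin and the longer transcript around it. The values below are therefore levels of precursor or host RNA and not of mature microRNA.

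By composition, the members were rich in G and C, with 21 to 52 of 60 bases and a median of 32 against 25 over all probes. Their median ratio of observed to expected CpG, given each probe's own C and G, was 1.21. The run CGCG stood in 30.3% of members and in 0.825% of all probes. The GC box GGGCGG, read on both strands, stood in 6.35% of members against 0.329% of all probes. The E-box CACGTG, a palindrome, stood in 2.30% against 0.593%, and the cAMP response element TGACGTCA, also a palindrome, stood in 1 member. All 4 of these motifs hold a CpG themselves, so the rule favours them. The polyadenylation signal AATAAA, read on the probe's strand, holds none and stood in 7.996% of members against 14.7% of all probes.

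Of the 913 members, 85 (9.31%) shared a run of at least 30 bases with a RefSeq miRNA hairpin, against 1.13% of all probes. The share grew with the number of CpG, from 5.98% of members with 4 to 10.73% with 5, 18.8% with 6 or 7 and 31.6% with 8 or more. It was 3.20% at 3 CpG and 0.803% at 0 CpG. GC content moved with it: among 0-CpG probes weighted to the members' GC counts the share was 12.7%, against 8.16% of the 858 members that had a 0-CpG probe of equal GC count. By this weighting, the hairpin share stood above that of the whole array and below that of GC-matched probes. At the higher GC counts the weighted share rests on few 0-CpG probes, with 39 at 36 G and C bases, 10 at 40, and 1 each at 41 and 44. The order of members and GC-matched probes is therefore uncertain.

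Promoter windows, the 250 bases before to 50 bases after a RefSeq gene start, showed another pattern. Of the members, 73 (7.996%) shared 30 bases with a window, 43 on the gene's strand and 36 on the opposite strand, with 6 of them in windows of genes on both strands. The share was 2.24% over all probes, 7.46% among members with a GC match and 3.61% among the 0-CpG probes weighted to them. The windows belonged to 81 genes, 62 protein-coding and 19 long non-coding. With 20 shared bases in place of 30, GC-matched 0-CpG probes had 10.75% and the matched members 10.02%, so the order of the shares turned. In all, 765 members matched neither reference and are named by probe only.

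Members also shared sequence with each other. They fell into 845 groups by shared runs of 30 bases, and 112 members lay in 44 groups of more than 1, the largest with 10. Such members are not independent readings.

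Levels are given as log2 signal relative to each array's 75th percentile over non-control probes, so 0 is that percentile, an intensity of 331 to 381. A member was detected on an array where at least 1 of its spots was well above background by the scanner software. The arrays had 66530 to 70466 detected probes and 0 saturated spots, and 712 to 755 members were detected. Of the controls, db/m replicate 1 was on slide 1 together with all db/db arrays, whereas db/m replicates 2 and 3 were on slide 2. Values within slide 1 are therefore given beside the results, and these rest on a single control array. The tissue could not be checked by its markers, since 1 of 36 marker genes had a same-strand probe identified here: Aif1 of microglia, with 2 probes at 7.30 to 8.11, detected on all 6 arrays.

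Members spanned the whole range of the array. The lowest level was -7.80, the median -2.64 and the highest 9.16, and 239 members (26.2%) lay above the 75th percentile on average, against 24.9% of all probes. Of the 913, 694 were detected on all 6 arrays, 99 on some and 120 on none.

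Against 0-CpG probes of equal GC count, the members were dimmer on every array. The median member level minus the matched level was -0.57, -0.44 and -0.53 on the db/db arrays. It was -0.54, -0.72 and -0.63 on the control arrays. Its mean over db/db was -0.51 ± 0.07 (SD, n = 3). Its mean over controls was -0.63 ± 0.09 (SD, n = 3), and the groups overlapped. Without matching the order turned round: over all 6 arrays the members stood 0.29 above the 0-CpG probes. These are descriptions without a test, since probes are not replicates of a condition.

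Detection followed the same order. Between 76.9% and 81.6% of the GC-matched members were detected per array, against 83.3% to 87.2% of the matched 0-CpG probes. The gap of members to matched probes was -5.54 ± 0.32 percentage points for db/db mice and -5.64 ± 0.67 for the controls (SD, n = 3 each). Unmatched, 78.0% to 82.7% of members and 73.0% to 77.3% of 0-CpG probes were detected.

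The gap in level was not shared by all GC counts. At 27 G and C bases, 266 members had a median level of -3.28 against -3.08 for 13291 0-CpG probes. At 33, 212 members stood at -2.44 against -1.83 for 526 probes. At 36, 71 members stood at -3.77 against -1.82, but only 39 probes made up the comparison. At 25 the order was opposite, with -1.92 for 29 members against -2.81, and at 31 it was opposite again, with 0.45 for 25 members against -2.16. Among the 11 GC counts with at least 10 members and 50 comparison probes, members were dimmer in 6.

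The size of the gap varied with the GC counts, hairpins and CpG threshold used. Limited to GC counts with at least 50 comparison probes, the gap over the 6 arrays was -0.16 in place of -0.57. Without hairpin-matching probes on both sides it was -0.26. For members with at least 6 CpG it was -3.004, and their gap in detection was -19.98 percentage points. Members with more CpG hold more G and C, and comparison probes are few there. There were 39 at 36 G and C bases, 10 at 40, and 1 each at 41 and 44. The size of these 2 gaps is therefore uncertain. In 10 GC counts with 55 members there was no 0-CpG probe at all.

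Within the members, more CpG did not go with a steady course of the level. The median was -2.59 with 4 CpG, -2.29 with 5, -3.73 with 6 or 7 and -2.47 with 8 or more, against -2.61 with 3 and -2.91 with 0. The shares detected on all 6 arrays were 75.1%, 80.2%, 69.8% and 86.8%, against 72.6% and 69.7%. The 5 members with the most CpG show this width. MOUSELNCRNA_51488 reached 4.94 to 5.66 over the 6 arrays, MOUSELNCRNA_17620 read -1.87 to -1.50, and MOUSELNCRNA_26812 read -4.99 to -4.20.

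The brightest member, MOUSELNCRNA_40875 with 5 CpG and 43 G and C bases, read 9.18, 9.10 and 9.15 in db/db and 9.24, 9.13 and 9.16 in db/m. It ranked at the 99.99th percentile of all probes, and the groups overlapped. MOUSELNCRNA_63497 followed at a mean of 8.67, MOUSELNCRNA_88748 at 8.66 and MOUSELNCRNA_30605, with 11 CpG, at 8.57. None of these matched a RefSeq window or hairpin. The fifth, MOUSELNCRNA_15457, read 7.25, 7.80 and 8.03 in db/db and 8.06, 7.94 and 8.05 in db/m, so db/db replicate 1 stood apart from the other arrays. The 4 brightest members are shown, with CpG in capitals, because they gave the strongest signals among the members.

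MOUSELNCRNA_40875: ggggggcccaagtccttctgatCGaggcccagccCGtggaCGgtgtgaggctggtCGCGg
MOUSELNCRNA_63497: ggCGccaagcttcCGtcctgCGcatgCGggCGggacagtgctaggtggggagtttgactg
MOUSELNCRNA_88748: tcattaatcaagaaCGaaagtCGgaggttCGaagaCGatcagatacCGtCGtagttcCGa
MOUSELNCRNA_30605: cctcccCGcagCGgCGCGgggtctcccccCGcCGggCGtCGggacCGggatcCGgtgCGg

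The spread between mice did not set the members apart. Over members detected on all arrays with a GC match, the median SD within groups was 0.14 log2 units, and it was 0.14 for the matched 0-CpG probes, a ratio of 1.001. With level matched as well the ratio was 0.978. Duplicate spots of a member differed by a median of 0.129, against 0.149 in the matched probes, a ratio of 0.864. By group, the members' median SD was 0.103 in db/db and 0.145 in db/m, where the slides differ among the db/m arrays. Over all probes detected on all arrays it was 0.119 in db/db and 0.137 in db/m.

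The members with the largest spread were MOUSELNCRNA_20515, MOUSELNCRNA_49925 and MOUSELNCRNA_6451. MOUSELNCRNA_49925 read -3.80, -1.69 and -1.48 in db/db and -4.16, -3.26 and -2.55 in db/m. MOUSELNCRNA_6451 read -3.61, -5.59 and -4.73 in db/db and -4.60, -5.91 and -5.91 in db/m, where 2 arrays detected it. In both, the arrays of a group lay further apart than the group means.

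The comparison of db/db with db/m was fitted with limma on the 66939 probes detected on all 3 arrays of at least 1 group, of which 719 were members. The remaining 194 members were not tested. After Benjamini-Hochberg adjustment over all tested probes, 0 members passed 0.05 in limma, against 0.00149% of all tested probes, and the smallest adjusted p among members was 0.185. At an unadjusted p under 0.05, 30 members lay higher in db/db, a share of 4.17% against 6.49% of all tested probes. Another 97 lay lower, a share of 13.5% against 11.4%. Together they made up 17.7% of members and 17.9% of the background, so the share of members is close to that of the array.

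That split depended on the treatment of GC content. With log2 values centred within GC counts on each array, 69 members lay higher and 62 lower. With normexp background correction and quantile normalization, the split was 52 to 99. Within slide 1 it was 20 to 48.

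The count of 0 held only with db/m replicate 1, the control array that shares a slide with the db/db arrays. Without it, limma called 36 members at an adjusted p under 0.05, 6 higher and 30 lower. That is 4.99% of members tested, against 7.14% of all probes tested. In that fit every db/db array is on slide 1 and every db/m array on slide 2, so slide and group cannot be told apart. Of 35 of these members with a difference within slide 1, 32 had the same direction there. Both differences use the same db/db arrays, so this agreement was partly fixed in advance and is no separate support. Over all tested members the median difference within slide 1 was -0.11. The same share over all called probes is not given here. In bulk tissue, fewer cells of a type and less RNA per cell cannot be told apart either.

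All 3 db/db arrays lay above all 3 db/m arrays for 43 members, 5.98% against 9.37% of tested probes. They lay below for 148 members, 20.6% against 15.1%. A difference of at least 2-fold was seen for 2 members in the higher direction, against 0.385% of tested probes, and for 1 in the lower, against 0.593%. The median difference of db/db minus db/m over members was -0.03 log2 units, against 0.00 over all tested probes. Over the 666 tested members with a GC match it was -0.01, against -0.10 over the matched 0-CpG probes. The members' differences were small, with 10% of them below -0.34 and 10% above 0.24.

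The smallest p among members belonged to MOUSELNCRNA_75124. It read -1.43, -1.38 and -1.34 in db/db and -2.45, -2.25 and -2.18 in db/m. The groups did not overlap, and db/m replicate 1 was the lowest array. The log2 difference was 0.91 (SE 0.10), 1.88-fold, with an adjusted p of 0.185 in limma, and it was 1.07 within slide 1. Without db/m replicate 1 the adjusted p was 0.0129, and over all 19 alternative fits the difference ran from 0.55, with normexp, to 1.07.

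In the lower direction, MOUSELNCRNA_70369 read -4.56, -4.09 and -4.24 in db/db and -3.17, -3.25 and -3.13 in db/m. The 3 control arrays lay close together and above every db/db array. The log2 difference was -1.11 (SE 0.13), with an adjusted p of 0.185 in limma, and it was -1.13 within slide 1. Over the 19 alternative fits it ran from -1.22 to -0.34, the smallest sizes being -0.40 and -0.34 with normexp background correction. Both probes are shown, with CpG in capitals, because they had the smallest p in each direction and differences of like size within slide 1.

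MOUSELNCRNA_75124: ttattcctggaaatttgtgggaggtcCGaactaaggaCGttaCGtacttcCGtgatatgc
MOUSELNCRNA_70369: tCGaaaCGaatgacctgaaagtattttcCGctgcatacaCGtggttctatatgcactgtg

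The largest difference was that of MOUSELNCRNA_20515, a probe with a single spot per array. It read 0.37, 1.40 and -1.63 in db/db and -2.97, -3.47 and -3.68 in db/m. The db/db arrays lay further apart than the control arrays, and each of them lay above all controls. The difference was 3.42 (SE 0.71), 10.71-fold, with an adjusted p of 0.208 in limma, and 2.20 with normexp. MOUSELNCRNA_4124, the other member over 2-fold higher and also with 1 spot, read -0.84, -0.50 and -2.28 in db/db and -2.12, -2.75 and -2.60 in db/m, so its groups overlapped. It falls outside the rule for named probes and was picked after its values were seen.

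Other members with small p had differences under 2-fold. MOUSELNCRNA_12437 had a difference of 0.66 and MOUSELNCRNA_85722 of 0.65, the latter detected on 2 of 3 db/m arrays. With normexp background correction the difference of MOUSELNCRNA_85722 was 0.052 (adjusted p = 0.649 in limma). MOUSELNCRNA_11962 had a difference of -0.48, with db/db at 0.32, 0.32 and 0.45 and db/m at 0.85, 0.80 and 0.88. MOUSELNCRNA_71779, MOUSELNCRNA_36567 and MOUSELNCRNA_42918 had differences of -0.61, -0.60 and -0.60, and of -0.36, -0.22 and -0.44 with normexp. The 2 spots of MOUSELNCRNA_42918 differed by a mean of 1.09 log2 units, more than its groups did. Without normexp, all 6 had an adjusted p of 0.208 in limma and groups that did not overlap.

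Some of the largest differences were smaller within slide 1 or with normexp. As slide 1 holds a single control array, its slide and its mouse cannot be told apart. MOUSELNCRNA_34318 read 3.36, 3.37 and 3.34 in db/db, 3.48 on the control array of slide 1, and 4.39 and 4.45 on those of slide 2. Its difference of -0.75 (adjusted p = 0.231 in limma) shrank to -0.12 within slide 1. MOUSELNCRNA_32195, detected on 2 of 3 db/db arrays, had -0.71 and -0.61 within slide 1, but -0.20 with normexp. Over the 19 alternative fits (18 for MOUSELNCRNA_85722 and MOUSELNCRNA_32195), each of the 12 members named by p or size kept its direction. Of these, 7 passed an adjusted p of 0.05 in a single fit, the one without db/m replicate 1.

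The difference between the groups varied with GC content. Among the 133 members with at least 38 G and C bases, 120 were tested, and 90 of them had a difference below 0 against 30 above. Their median difference was -0.15, and 33 of them (27.5%) lay lower at an unadjusted p under 0.05, with 2 higher (1.67%). Of all 66939 tested probes 11.4% lay lower and 6.49% higher. Of the 211 tested probes with as many G and C, these members among them, 26.5% lay lower and 1.42% higher, with a median of -0.14, so the members' shares are close to those of the array at this GC content. The median deviations of these members from their 6-array mean were -0.09, -0.11 and -0.02 on the db/db arrays. On the controls they were 0.10, 0.04 and 0.09, so the groups did not overlap. Within slide 1 the median difference was -0.16.

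The 599 tested members with fewer G and C bases had a median difference of 0.00, with 300 above 0 and 299 below. On the controls, in replicate order, their deviations were 0.09, -0.07 and -0.02, so the control arrays of different slides lay on either side of the db/db arrays, which were within 0.02 of 0. Within slide 1 their median was -0.10. Of the probes without a CpG, 24 had at least 38 G and C bases and 23 were tested. Of these, 21 lay below 0, and their median was -0.16. The difference between them and the members was not tested. After centring within GC counts, in which counts of 38 and more were taken as 1 class, the median of the GC-rich members was -0.04.

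By CpG count, the median difference was 0.00 with 4 CpG, -0.06 with 5, -0.06 with 6 or 7 and -0.19 with 8 or more. At an unadjusted p under 0.05, 10 of 33 tested members with 8 or more CpG (30.3%) lay lower and 0 higher in limma. The shares were 11.4% and 6.49% of all tested probes, and 26.5% and 1.42% of those with at least 38 G and C. The 2 counts move together, since members with more CpG hold more G and C, and their parts in the difference were not tested apart. Among the members with the most CpG, MOUSELNCRNA_51488 read 4.94, 4.97 and 5.33 in db/db and 5.51, 5.42 and 5.66 in db/m. Its difference of -0.45 (adjusted p = 0.214 in limma) came with groups that did not overlap. MOUSELNCRNA_47252 had -0.36 (adjusted p = 0.210), also without overlap, while MOUSELNCRNA_17620, MOUSELNCRNA_61793 and MOUSELNCRNA_26812 overlapped, at 0.14, -0.24 and -0.13.

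Of the 85 hairpin members, 84 held bases of a hairpin on its own strand and 1 on the opposite strand only. The 84 covered 75 hairpins, 8 of them held by more than 1 member. Of the 85, 66 were detected on all 6 arrays and 10 on none, and levels ran from -7.62 to 5.05. Of 68 tested, 3 lay higher (unadjusted p under 0.05), 4.41% against 6.49% of all tested probes. Another 13 lay lower, 19.1% against 11.4%, and 0 passed the adjusted threshold in limma. Of all tested probes with at least 38 G and C, 26.5% lay lower. Their median difference was -0.14, and the 40 tested with at least 38 G and C had -0.18 against -0.02 for the other 28.

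Mir137, Mir132 and Mir138-2, hairpins of neuronal microRNAs, were picked with their values known. Over all 6 arrays their differences lay above 0, whereas 46 of 68 tested hairpin members lay below 0 and 22 above. The member at Mir129-2, MOUSELNCRNA_19669, had -0.20 within slide 1 and -0.25 without db/m replicate 1. Mir137 on chromosome 3 (118433857 to 118433929, plus strand) was read by 2 overlapping members. Mir137 is a brain-enriched microRNA with roles in neuronal maturation and synapses. MOUSELNCRNA_18960 read -2.94, -2.92 and -3.21 in db/db and -3.26, -3.40 and -3.51 in db/m. MOUSELNCRNA_63968 read -3.37, -3.26 and -3.48 in db/db and -3.96, -4.28 and -3.71 in db/m. In both, every db/db array lay above every db/m array. The differences were 0.37 (SE 0.12, adjusted p = 0.221 in limma) and 0.61 (SE 0.15, adjusted p = 0.208), and within slide 1 they were 0.24 and 0.59. The probes share the mature 3p arm, printed above, so they read the same RNA.

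Mir132, a microRNA whose transcription follows neuronal activity, also had 2 members, on chromosome 11 (75173682 to 75173747, plus strand). MOUSELNCRNA_4292 read -2.42, -2.84 and -2.62 in db/db and -2.43, -3.12 and -3.09 in db/m, and the groups overlapped. The differences of the pair were 0.26 and 0.51 (adjusted p = 0.553 and 0.421 in limma), and both turned to -0.19 and -0.14 within slide 1. Mir138-2, from a family enriched in brain and tied to dendritic spines, had 2 members at 0.34 and 0.35 (adjusted p = 0.332 and 0.354), with groups that overlapped.

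Mir219 is known for driving the maturation of oligodendrocytes, the myelin-forming cells. At Mir219a-1 on chromosome 17 (34024983 to 34025092, minus strand), MOUSELNCRNA_12764 read -3.08, -2.95 and -2.85 in db/db and -2.76, -2.47 and -2.56 in db/m. The groups did not overlap, with a difference of -0.36 (SE 0.11, adjusted p = 0.218 in limma) that was -0.20 within slide 1. At Mir219a-2 on chromosome 2 (29845631 to 29845727, minus strand), MOUSELNCRNA_40031 read -5.03, -5.26 and -4.79 in db/db and -4.35, -4.76 and -4.43 in db/m. Its difference was -0.51 (SE 0.16, adjusted p = 0.218), again without overlap, and -0.68 within slide 1.

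The opposite strand of both Mir219 loci was also printed on the array. MOUSELNCRNA_56431, which runs along Mir219c, read -7.79 to -7.30 and was detected on 0 of 6 arrays. MOUSELNCRNA_81826, along Mir219b, read -7.70 to -6.59 and was detected on 0 as well. These probes hold as many CpG as their partners or nearly so, 6 against 7 and 4 against 4, and similar G and C, 35 against 36 and 30 against 33. As different probes of 1 strand can also differ in detection, these values do not show which strand was transcribed. At Mir409 on chromosome 12 (109743158 to 109743236, plus strand), both strands were detected on all 6 arrays. MOUSELNCRNA_40500 on the hairpin's strand read -4.19 to -3.31, and MOUSELNCRNA_89638 on the other read -3.58 to -3.32.

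Of the 85 hairpin members, 10 were detected on 0 arrays, against 120 of all 913 members. Among the 10 were the members for Mir126a, a microRNA of endothelium, Mir208b, of heart and slow muscle, and Mir196a-2, from a Hox cluster. These 3 were picked after their values were seen. Mir375, known from pancreatic islets, had a pair of members: MOUSELNCRNA_83522 read -5.34 to -4.92 and was detected on all arrays, while MOUSELNCRNA_3791 read -7.77 to -7.04 and was detected on 0. Their sequences overlap, and still the pair differed in detection on every array.

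The imprinted Dlk1-Dio3 region of chromosome 12, whose maternal non-coding transcripts carry many brain microRNAs, was read by 13 members on the strand of 10 hairpins between 109563692 and 110278129. Of these, 10 were detected on all arrays and 0 on none, and levels ran from -6.13 to 0.08 with a median of -4.46. Of 11 tested, 0 lay higher and 1 lay lower (unadjusted p under 0.05 in limma), against 6.49% and 11.4% of all tested probes, so the count is near the background. Differences of the tested members ran from -0.41 to 0.24, with a median of -0.08. The member at Mir411 was not tested. A probe outside the rule that overlaps it, MOUSELNCRNA_89112 with 3 CpG, had a difference of 2.00 (adjusted p = 0.211 in limma). It read -1.60, -1.41 and -3.45 in db/db and -3.79, -4.11 and -4.57 in db/m, and was picked after its values were seen.

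The brightest of the region were the 2 overlapping members at Mir485 and at the start of Mirg, the non-coding host gene of this stretch. MOUSELNCRNA_27499 read -0.02, 0.02 and 0.01 in db/db and 0.20, 0.10 and 0.19 in db/m, a difference of -0.16 (adjusted p = 0.332 in limma) with every db/db array under the lowest control. MOUSELNCRNA_75651, shifted by a few bases, read -0.52, -0.53 and -0.48 against -0.34, -0.57 and -0.45, and its groups overlapped. The member that lay lower was MOUSELNCRNA_67866 at Mir1247 and the start of Dio3os, the antisense transcript of the thyroid hormone deiodinase gene Dio3. It read -1.29, -1.37 and -1.21 in db/db and -1.15, -0.996 and -0.92 in db/m, a difference of -0.27 (adjusted p = 0.242) and of -0.14 within slide 1.

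The other hairpin members that lay lower were GC-rich for the most part. MOUSELNCRNA_54762, along the hairpin of miR-935 (Gm23450) on chromosome 7 (3415066 to 3415156, plus strand), read 2.49, 2.67 and 2.69 in db/db and 2.85, 3.14 and 3.49 in db/m. Its difference was -0.54 (adjusted p = 0.217 in limma), and -0.24 within slide 1. MOUSELNCRNA_11632, along Mir8112 and before the start of Krcc1 on chromosome 6 (71271671 to 71271801, plus strand), read 1.19, 1.31 and 1.33 against 1.56, 1.81 and 1.92. Its difference was -0.49 (adjusted p = 0.208), -0.28 within slide 1, and without db/m replicate 1 its adjusted p was 0.0254.

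Members at Mir8098, Mir8104 and Mir5133 had -0.45, -0.39 and -0.38, and at Mir8120, with 36 G and C bases, the difference was -0.57 (adjusted p of 0.208 to 0.227 in limma). In each of the 4, no db/db array reached the lowest control. In the other direction, the member at Mir7036 had 0.36 (adjusted p = 0.259), with db/db at 0.26, 0.33 and 0.22 and db/m at 0.21, -0.23 and -0.26. Its db/m replicate 1 lay next to the db/db arrays, and within slide 1 the difference was 0.06.

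The members in promoter windows were dim, with a median level of -3.32, and 54 of 73 were detected on all arrays. Of 57 tested, 3 lay higher (unadjusted p under 0.05), 5.26% against 6.49% of all tested probes. Another 5 lay lower, 8.77% against 11.4%, and 0 passed the adjusted threshold in limma. These counts are small and near the background. By sign, 37 of the 57 had a difference below 0 and 20 above, with a median of -0.085 against 0.00 over all tested probes. The highest db/db array stood under the lowest control in 14 (24.6%, against 15.1% of tested probes). Of these 14, 4 overlap each other before the start of Gm26232. The reverse order was seen in 4 members, 7.02% against 9.37%. A shift of these members relative to the array was not tested. Members on the gene's strand had a median difference of -0.14, and those on the opposite strand 0.01. By symbol prefix, the lists of Hox genes, replication-dependent histones and ribosomal proteins had 1 member each, and zinc finger genes named Zfp or Zic had 3. The prefixes do not catch every gene of a family. Among those missed were the histone genes H1f3 and H2aw and the zinc finger gene Zkscan17, with 1 member each. The H1f3 and H2aw members had differences of -0.33 and -0.22 (adjusted p = 0.495 and 0.501 in limma). Clustered protocadherins, other homeobox, Fox and Sox factors, potassium channels and collagens had 0.

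Among genes of RNA handling, the member at the start of Hnrnpa3, which encodes a nuclear RNA-binding protein, lies from base -11 to 48. MOUSELNCRNA_55635 read 1.87, 1.92 and 2.09 in db/db, 2.02 on the control array of slide 1, and 2.72 and 2.76 on those of slide 2. The groups overlapped, and the difference of -0.54 (adjusted p = 0.258 in limma) was -0.06 within slide 1. The member at Snrpd3, a core protein of spliceosomal particles, read 2.37 to 2.54 with a difference of 0.04 (adjusted p = 0.860). MOUSELNCRNA_86796, before the ribosomal protein gene Rpl19, had 0.05 (adjusted p = 0.866).

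At Fmr1, whose protein represses translation at synapses and whose loss causes fragile X syndrome, MOUSELNCRNA_76324 lies across the start, from base -44 to 15, and also antisense within the window of Fmr1os. It read -3.86, -3.62 and -3.60 in db/db and -3.84, -3.96 and -3.74 in db/m, and the groups overlapped (difference 0.15, adjusted p = 0.493 in limma). MOUSELNCRNA_22671, antisense to the window of the homeobox gene Hoxa11, was detected on all arrays at -4.07 to -3.51. It had a difference of -0.25 (adjusted p = 0.320). The member at the histone gene H3c13 was detected on 2 of 3 db/db arrays and 0 of 3 db/m arrays, and the members at the zinc finger genes Zfp317 and Zfp507 on 0 of 6. The member at Zfp827, another zinc finger gene, read 2.34 to 2.64 with a difference of 0.08 (adjusted p = 0.681).

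All 3 promoter-window members that lay higher at an unadjusted p under 0.05 were on the opposite strand, and 4 of the 5 that lay lower were on the gene's strand. The 3 made up 10.3% of 29 tested opposite-strand members, against 6.49% of all tested probes. The 4 made up 12.1% of 33 tested members on the gene's strand, against 11.4%. These counts are small, some members lie in windows on both strands, and a difference between the strands was not tested. The smallest p was that of MOUSELNCRNA_77984, antisense before the start of Pgbd1, a gene derived from a piggyBac transposon. It read -3.50, -3.69 and -3.52 in db/db and -4.37, -4.20 and -3.90 in db/m. Its difference was 0.59 (SE 0.14, adjusted p = 0.208 in limma) without overlap, and 0.80 within slide 1. With normexp background correction it was 0.091 (adjusted p = 0.396). MOUSELNCRNA_58062, antisense to the window of the zinc finger gene Zkscan17, read 0.37, 0.37 and 0.34 against 0.18, 0.03 and 0.02. Its difference was 0.29 (adjusted p = 0.213), and 0.19 within slide 1. The Pgbd1 probe is shown, with CpG in capitals, as the promoter-window member with the smallest p.

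MOUSELNCRNA_77984: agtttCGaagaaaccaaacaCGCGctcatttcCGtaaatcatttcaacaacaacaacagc

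The largest group of overlapping members held 10 probes with 31 to 33 G and C bases, linked by shared runs of at least 30 bases. None matched a RefSeq window or hairpin. The first is shown, as an example of what the group reads, with CpG in capitals.

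MOUSELNCRNA_17053: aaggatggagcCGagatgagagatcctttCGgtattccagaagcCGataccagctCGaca

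All 10 were detected on all arrays, at mean levels of -0.03 to 0.81, and all 10 had a difference above 0, from 0.16 to 0.29. The medians over the group were 0.71, 0.63 and 0.52 in db/db and 0.55, 0.41 and 0.29 in db/m, so db/m replicate 1 lay inside the db/db range. In 4 of the 10 the groups did not overlap, against 9.37% of all tested probes, and the smallest adjusted p was 0.243 in limma. Within slide 1 the differences were smaller, from 0.02 to 0.13. A group of 4 overlapping members had 0.16 to 0.31, with the smallest adjusted p at 0.248 in limma, and 0.32 to 0.43 within slide 1.

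Other overlapping members gave other signs. The 5 members before the start of the non-coding gene Gm26232 on chromosome 3 were among the brightest, with mean levels of 6.57 to 6.99. All 5 had a difference below 0, from -0.18 to -0.08, and in 4 of them the groups did not overlap, against 15.1% of all tested probes (smallest adjusted p = 0.285 in limma). Within slide 1 the 5 differences were -0.16 to -0.14. A group of 8 with 27 G and C bases had differences from -0.17 to 0.09, on both sides of 0. As overlapping probes read shared RNA, the signs within a group are repeat readings of 1 difference and not separate ones.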

How the data were processed

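Hippocampal total RNA was amplified and Cy3-labelled for 1-colour arrays, per the labels. The authors deposited a scanner table for each array, whose processed signal is a background-corrected intensity and whose mean and background signals are intensities too, per the file headers. The software was Agilent Feature Extraction, version 12.0.3.1 per the file headers. The submitters' processing notes instead give version 10.7 and list limma too. The authors also deposited a table of log2 values for the same arrays. Its column medians of 5.66 to 5.67 show normalization between arrays, whose method is not given in the sources used here. Its columns for db/db replicates 2 and 3 held each other's arrays, so it was used only between groups. Genome builds of the probe design are not given in the sources used here.

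Log2 of the processed signal was taken with no pseudocount, each array's 75th percentile over non-control spots was subtracted, flagged outlier spots were dropped, and spots of a probe were averaged. The group comparison used lmFit and eBayes of limma 3.58.1 (R 4.3.3, two-sided, no covariates) with Benjamini-Hochberg adjustment. Scaling to a percentile would hide a shift shared by most RNAs. Matched values weight 0-CpG probes to the members' GC counts. Exact runs of 30 bases, on either strand, were searched in RefSeq hairpins and promoter windows (GRCm38.p6). The fit and the GC matching were tested on simulated data. The number of arrays limits the precision. The p-values rest on the spread between 3 arrays a group, moderated over all tested probes. In db/m that spread mixes mice and slides.

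Named probes were the 5 smallest p in each direction, the 3 largest differences in each direction among those at an unadjusted p under 0.05 without overlap, the 5 brightest, the 5 with the most CpG, the 3 with the largest SD, and members tied to a gene or hairpin. Members and lists were chosen with earlier results of these data known, and the hairpin search and the division at 38 G and C bases were added after these data were seen. Translated probes were to be matched to RefSeq proteins as well, and no protein table was used here. Replicate numbers are not stated to pair mice. Correlations of same-numbered deviations were 0.08, -0.15 and 0.13.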

Additional observations from a re-analysis of the deposited data

How the results depend on the processing

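The count of 0 called members held in limma under every alternative except leaving out db/m replicate 1 (range over left-out arrays 0 to 36). Members at an unadjusted p under 0.05 lay higher in 15 to 102 and lower in 54 to 114 over left-out arrays. The higher count was 52 with normexp and quantile normalization, 18 with slide as a fixed block, 69 with GC centring (lower 62), 111 with at least 3 CpG (lower 258) and 2 with at least 6 (lower 24). The lower count was 48 within slide 1. The median difference of members was -0.11 with slide as a fixed block, within slide 1 and with at least 6 CpG, 0.034 with GC centring, and -0.068 to 0.0090 over left-out arrays.

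For members with at least 38 G and C it was -0.065 with normexp and quantile normalization, -0.045 with GC centring and -0.19 to -0.13 over left-out arrays. For the others it was -0.033 with normexp and without a filter on dim probes, -0.032 with slide as a random block, 0.032 with the authors' values, -0.10 with slide fixed or within slide 1, 0.053 with GC centring, and -0.040 to 0.050 over left-out arrays. The hairpin members kept a median below 0 in every fit, from -0.16 within slide 1 to -0.05 with GC centring.

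The level gap to GC-matched probes was 0.29 unmatched, -0.16 with at least 50 comparison probes per GC count, -0.18 with at least 3 CpG, -3.004 with at least 6, -0.26 without hairpins and -0.30 with normexp. The detection gap was 5.38 points unmatched, -3.99, -3.06, -19.98 and -4.89 in the same order, and -6.10 when all spots had to be detected. The spread ratio was 0.928, 0.948, 0.945 and 1.22 under the first 4, and 0.971 to 1.06 over left-out arrays. The values with at least 6 CpG rest on few comparison probes at high GC counts. With 20 shared bases the members' promoter share was 10.73%.

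With replicate number as a block, 0 members were called, 30 lay higher and 89 lower, and the spread ratio was 0.984. Own-number correlation was the highest for 2 of 6 arrays, and so few arrays cannot show whether the numbers pair mice. Limiting both sides to the commonest probe prefix was not run, since all probes have it. Signal over background limits the 194 members left untested.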
